A study of Mus musculus with 12 samples.

Results

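The genes described here report on and restrain the ERK pathway, and their transcripts were measured in mammary tumours driven by an activated neu (ErbB2) transgene in 6 mouse strains. The 10 members are Spry1, Spry2, Spry4, Spred1, Spred2, Dusp4, Dusp5, Dusp6, Etv4 and Etv5. A probe was taken as a member when its gene name in the array files, or the current symbol of its transcript accession, was one of these. This gave 16 probes for 9 genes, of 41174 probes on the array, and no probe was matched to Dusp5. All 16 passed the filters and stood among the 40847 probes tested. Where a gene had several probes they are numbered by brightness, with probe 1 the brightest.

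Growth factor receptors such as ErbB2 switch on Ras, which starts the kinase relay Raf, MEK and ERK. Active ERK induces its own brakes: Sprouty (Spry) and Spred proteins act on the Ras and Raf steps, and the dual-specificity phosphatases (Dusp) remove the activating phosphates from ERK and related kinases. Etv4 and Etv5 are ETS transcription factors of the PEA3 group, whose transcripts rise with ERK signalling in many epithelia and which take part in mammary branching. Transcript levels of these genes are therefore widely used as a readout of the pathway, although ERK activity itself was not measured here.

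All 6 strains express neu from the MMTV promoter, which drives it mainly in mammary epithelium and also in other secretory epithelia such as the salivary gland. NDL25, which is the parental NDL2-5 strain, carries an activating deletion in the extracellular part of the receptor. In NYPD, YB, YC, YD and YE the same kind of activated receptor has an altered tail. As background from outside the labels, NYPD lacks the main tyrosines that the receptor phosphorylates on its tail, and each of the other strains has 1 of these sites restored, the one in YB known to bind Grb2 and the one in YD known to bind Shc. Per the labels, tumours of female mice were taken after 6 weeks of tumour growth, with 10 tumours for each strain divided over 2 pools. Each of the 12 pools was hybridised on 2 arrays with exchanged dyes against Universal Mouse Reference RNA, a mixture from many mouse cell types. Each strain is thus represented by n = 2 pools of 5 tumours, so the p-values measure the spread between such pools and not between mice. In whole tumours, fewer cells of a type and less RNA per cell cannot be told apart.

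Median tumour signals of the 24 arrays ran from 361 to 755 over local backgrounds of 39 to 64, and between 97.3% and 98.8% of probes were well above background. Tumour signal was well above background on 24 of 24 arrays for 15 of the 16 member probes, and Etv5 probe 2 on 23, the exception being 1 array of YC pool 1. The Dusp6 probe was saturated on both arrays of NDL25 pool 2, so its level there may be understated. The 8 luminal epithelial markers averaged between 2.34 and 2.98 (log2 tumour over reference) in every pool. The tumour dye was itself read from luminal and milk genes, so this level is no check of the tissue label. Array files were processed in 3 sessions, read from the day of feature extraction in the headers. NDL25 and YB lay in 1 session with YC pool 1, YD and YE lay in another, and NYPD alone made up the third, so NYPD and its session cannot be told apart. The arrays of YC pool 2 were divided over the first 2 of these sessions.

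Promoter sequences from RefSeq (GRCm38.p6) are shown for Dusp6, Spry2 and Spry1, because the first 2 of these shared a low level in NYPD tumours and the last was high in YB tumours alone among the strains. Each is the 250 bases before the annotated start, read 5′ to 3′ on the gene's strand. Capitals mark GGAA or its reverse complement TTCC, the core that ETS factors contact. The Dusp6 window is chr10:99262981-99263230 on the plus strand, the Spry2 window is chr14:105896820-105897069 on the minus strand, and the Spry1 window is chr3:37639697-37639946 on the plus strand.
Dusp6: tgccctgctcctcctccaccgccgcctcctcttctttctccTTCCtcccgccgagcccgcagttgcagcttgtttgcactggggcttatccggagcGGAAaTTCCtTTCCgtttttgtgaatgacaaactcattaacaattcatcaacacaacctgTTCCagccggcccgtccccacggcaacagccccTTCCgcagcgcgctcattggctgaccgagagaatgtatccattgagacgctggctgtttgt
Spry2: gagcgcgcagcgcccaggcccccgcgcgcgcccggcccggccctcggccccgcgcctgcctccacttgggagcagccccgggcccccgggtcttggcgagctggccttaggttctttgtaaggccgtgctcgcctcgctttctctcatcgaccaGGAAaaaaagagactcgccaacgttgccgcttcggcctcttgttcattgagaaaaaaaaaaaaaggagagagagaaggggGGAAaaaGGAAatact
Spry1: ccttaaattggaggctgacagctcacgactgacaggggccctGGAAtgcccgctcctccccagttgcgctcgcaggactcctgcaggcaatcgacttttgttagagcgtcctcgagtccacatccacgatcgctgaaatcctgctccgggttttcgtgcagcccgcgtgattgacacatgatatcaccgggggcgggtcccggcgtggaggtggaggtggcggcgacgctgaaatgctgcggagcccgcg

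The Dusp6 window holds 6 matches to this core on both strands together, the Spry2 window 3 and the Spry1 window 1. So short a motif is common: 93.4% of the 32851 promoter windows in the table hold it, with a median of 3 matches. Longer motifs searched on both strands were the ETS site CCGGAAG, which contains the core and lies in 6.91% of all windows, the AP-1 site TGANTCA in 6.75% and the cyclic AMP response element TGACGTCA in 1.55%. None of these 3 letter strings occurs in the windows of the 7 members that were searched, which are Dusp5, Dusp6, Etv5, Spred1, Spred2, Spry1 and Spry2.

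The clearest differences in the family were a fall of Spry4 in NYPD and YB tumours and a rise of Spry1 in YB tumours. On the brighter Spry4 probe the parental strain NDL25 stood 2.19-fold above NYPD and 2.23-fold above YB. It also stood above YC, YD and YE, by differences that did not pass the test. The dimmer Spry4 probe did not carry these differences. Spry1 was 1.41-fold higher in YB than in NDL25 and 1.51-fold higher than in NYPD. Dusp6 and Spry2 had their lowest levels in NYPD, but those differences did not pass the test. Etv4, Etv5, Dusp4, Spred1 and Spred2 gave no difference past the threshold in any comparison.

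**Figure D1:**
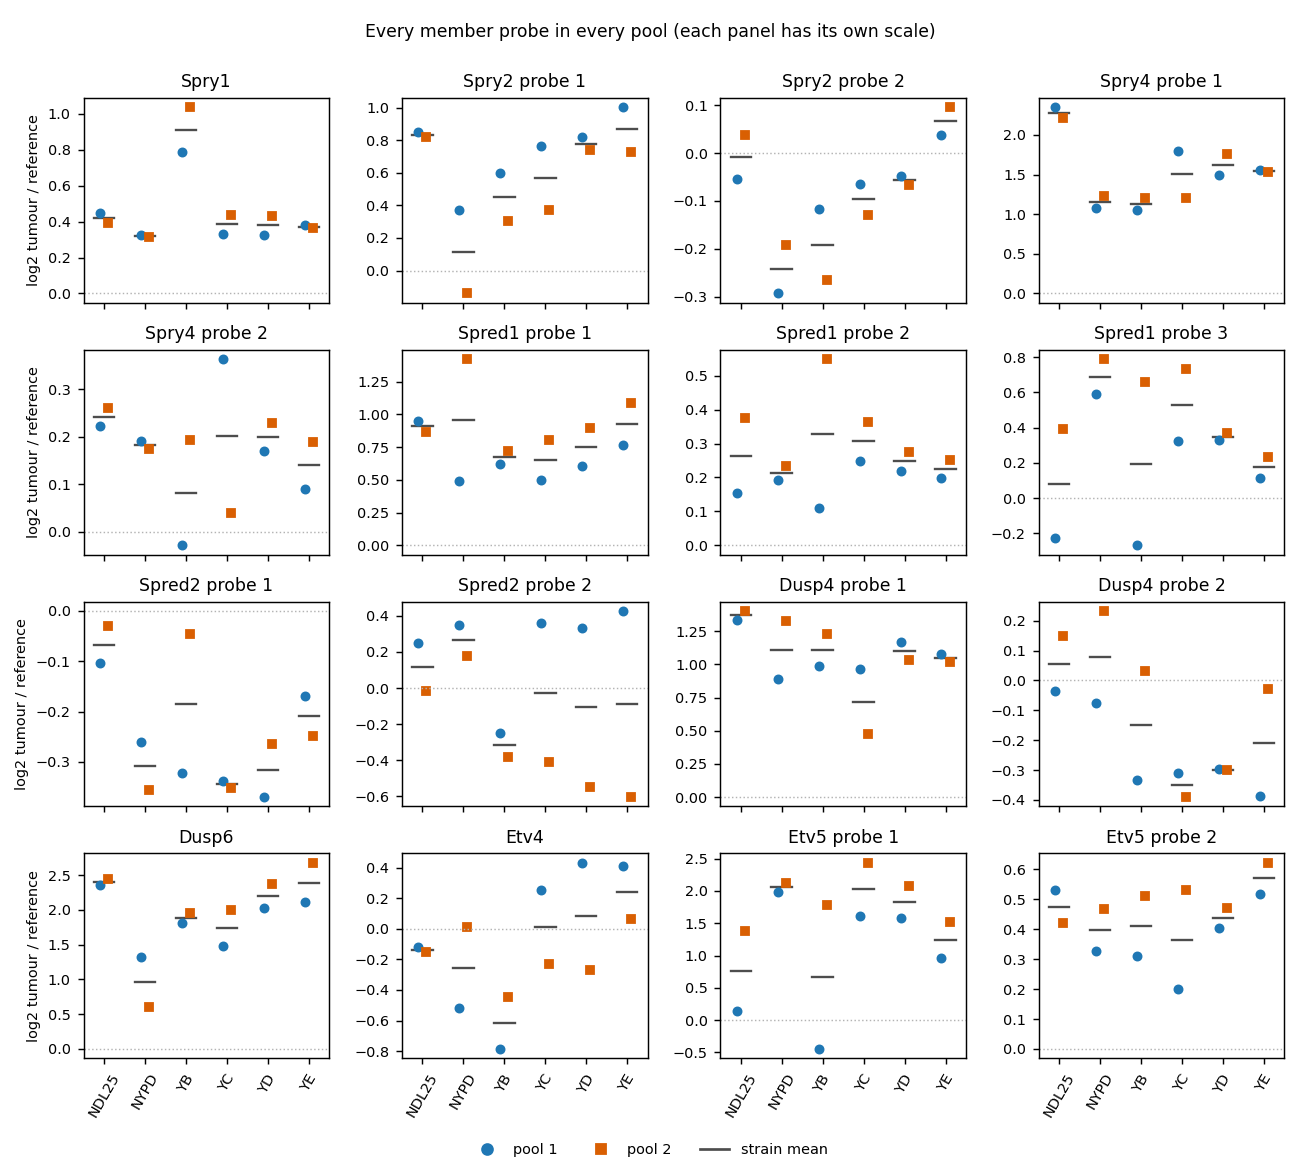
Level of each of the 16 member probes as log2 tumour over reference (vertical axis, a separate scale in each panel) in the 2 pools of each strain, with circles for pool 1, squares for pool 2 and bars for strain means. Spry1 is high in the YB pools alone, Spry4 probe 1 is highest in NDL25, Dusp6 is lowest in NYPD, and Etv5 probe 1 is far apart between the pools of NDL25 and of YB.

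Strain means were fitted to all probes in a single limma model, with Benjamini-Hochberg adjustment over the 40847 probes and a threshold of 0.05. The moderated F test over the 6 strains called 0 of the 16 member probes, against 2.39% of all probes. At an unadjusted p under 0.05 it took 5 member probes, against 20.2% of all probes. The lowest F test adjusted p-values among the members in limma were 0.0516 for Spry1, 0.0688 for Spry4 probe 1 and 0.113 for Dusp6. The calls below therefore come from single contrasts.

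Among the contrasts with NDL25, 1 member probe was called in NYPD, where 0.864% of all probes were called, and 2 in YB, where 3.11% were. No member probe was called in YC, YD or YE by limma, where 0.00734%, 0% and 0.00245% of all probes were called, and 4, 2 and 1 member probes had an unadjusted p under 0.05, against 11.3%, 9.9% and 7.1% of all probes. Against NYPD, 1 member probe was called in YB, against 4.23% of all probes, and 0 in YC, YD and YE, against 0.0392%, 0.0196% and 1.81%. Those 3 limma contrasts had 2, 4 and 3 member probes at an unadjusted p under 0.05, against 10%, 10.8% and 19.3% of all probes. In YB against YD, 1 member probe was called, against 2.86% of all probes. The counts of 0 members stand beside backgrounds of at most 0.0392%, except in YE against NYPD, where 1.81% of all probes were called.

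**Figure D2:**
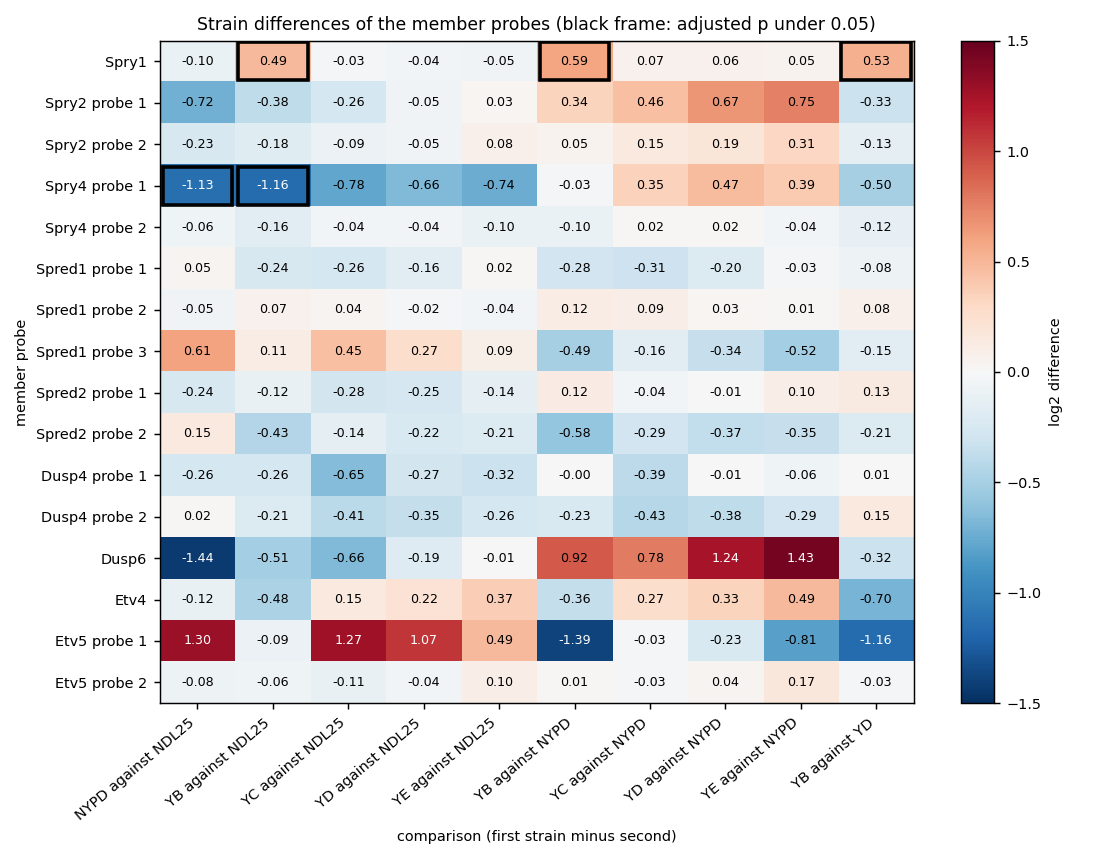
Log2 difference between strain means for each of the 16 member probes (rows) in the 10 contrasts (columns), red where the first strain is higher and blue where it is lower, with black frames around adjusted p under 0.05. Frames surround Spry4 probe 1 in 2 contrasts with NDL25 and Spry1 in the 3 contrasts of YB with NDL25, NYPD and YD.

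Sprouty4 (Spry4) is an inhibitor of receptor-driven Ras signalling. Its probe 1 read 2.35 and 2.21 in the pools of NDL25 (log2 tumour over reference). It read 1.08 and 1.22 in NYPD, and 1.05 and 1.20 in YB. It read 1.80 and 1.21 in YC, 1.49 and 1.76 in YD, and 1.55 and 1.53 in YE. Both NDL25 pools lay above all 10 pools of the other strains, and below NDL25 each strain overlapped the next in the order YD, YE, YC, NYPD and YB.

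Spry4 probe 1 fell by 1.13 ± 0.18 in NYPD against NDL25 (log2 difference ± SE, limma adjusted p = 0.0443, 2 pools in each strain). It fell by 1.16 ± 0.18 in YB against NDL25, with a limma adjusted p of 0.0211. The differences from NDL25 in YC, YD and YE were -0.78, -0.66 and -0.74, with limma adjusted p-values of 0.184, 0.297 and 0.405, so they did not pass the test although the same 2 parental pools lay above them. YB and NYPD differed by -0.03 with a 95% interval from -0.45 to 0.39. The contrast of YB with NDL25 lies within 1 session, and read separately in each dye it was -1.15 with the tumour in Cy3 and -1.16 with the tumour in Cy5, although this probe read higher with the tumour in Cy3 than in Cy5 in every pool (Cy5 minus Cy3 from -1.01 to -0.74). With the session as a fixed block, which left out NYPD and took the session step from YC alone, the differences of YD and YE from NDL25 turned to 0.52 and 0.44 (limma adjusted p = 0.9997 and 0.955).

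The second Spry4 probe was dim and near the reference, and did not carry these differences. Its strain means ran from 0.08 in YB to 0.24 in NDL25, and NYPD and YB differed from NDL25 by -0.06 and -0.16 (limma adjusted p = 0.854 and 0.58). Its median tumour signal was 122, compared with 2803 for probe 1, and both probes carry the same transcript accession. The strain order was nonetheless headed by NDL25 and closed by YB on both. Values of both probes correlated at r = 0.60 across the 12 pools. This is given as a description, because both probes were read on the same arrays and pools of a strain share a receptor. In the authors' deposited table, Spry4 probe 1 read 2.49 and 2.48 in NDL25, 1.49 and 1.42 in NYPD, and 1.03 and 1.17 in YB.

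Averages of macrophage, fibroblast, basal and adipocyte markers, and of luminal and milk genes, also differed between NDL25 and both NYPD and YB. The 8 macrophage markers averaged 0.62 to 0.69 in the NDL25 pools, 1.19 to 1.26 in NYPD and 1.05 to 1.70 in YB, with 5 of 8 above the reference in NDL25, 7 in NYPD and 6 or 7 in YB. The 8 fibroblast markers averaged -0.91 to -0.81 in NDL25, -0.33 to 0.31 in NYPD and -0.47 to 0.44 in YB. The 8 basal markers averaged -0.13 to -0.11 in NDL25, 0.31 to 0.89 in NYPD and 0.21 to 0.27 in YB. The 16 luminal and milk genes averaged 2.24 to 2.40, 2.84 to 3.32 and 2.83 to 3.04 in the same order. The 7 adipocyte markers averaged 0.93 to 1.08 in NDL25, 1.26 to 1.35 in NYPD and 1.31 to 1.70 in YB, with 0 called. The 8 proliferation genes averaged -1.20 to -0.83 in NDL25, -1.11 to -1.01 in NYPD and -1.52 to -1.42 in YB. Of these 8 genes, 1 was called lower in NYPD and 2 in YB by limma. Other strains also departed from NDL25. Macrophage markers averaged 0.94 to 0.98 in YD and 0.27 to 0.59 in YE. Adipocyte markers averaged 1.56 to 1.84 in YD and 1.27 to 1.35 in YE. Basal markers averaged 0.15 to 0.26 in YD, and luminal and milk genes 2.70 to 2.82 in YC. Called higher in NYPD than in NDL25 by limma were 1 macrophage, 2 basal and 4 luminal and milk genes. Of the fibroblast markers 0 were called, with 3 at an unadjusted p under 0.05. In YB, 1 macrophage, 0 fibroblast (2 unadjusted), 0 basal (2 unadjusted) and 2 luminal and milk genes were called. Of the 8 luminal markers alone, 0 were called in NYPD and 1 in YB. Over all probes, 0.864% and 3.11% were called in these 2 contrasts. At an unadjusted p under 0.05, the 10 contrasts had between 7.1% and 19.4% of all probes. The part of these marker genes in the Spry4 result was not tested.

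Each of the Spry4 calls depended on single pools. Without NDL25 pool 1 or pool 2, the difference in YB was -1.09 and -1.22 with limma adjusted p-values of 0.143 and 0.0995, and without YB pool 1 it was -1.08 (adjusted p = 0.0642). The difference in NYPD was -1.06 and -1.20 without either NDL25 pool, with adjusted p-values of 0.216 and 0.121 in limma. It was likewise not called without either pool of NYPD, YD or YE, with limma adjusted p-values between 0.0718 and 0.10. A limma fit on the 2 strains alone gave adjusted p = 0.199 for YB and 0.141 for NYPD.

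Spry1, another Sprouty inhibitor, was measured by 1 probe and set YB apart. It read 0.79 and 1.04 in the YB pools. In the other strains it read 0.45 and 0.39 in NDL25, 0.33 and 0.31 in NYPD, 0.33 and 0.44 in YC, 0.32 and 0.43 in YD, and 0.38 and 0.36 in YE. Both YB pools lay above all 10 others, which spanned only 0.31 to 0.45.

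Spry1 rose by 0.49 ± 0.09 in YB against NDL25 (limma adjusted p = 0.0292) and by 0.59 ± 0.09 against NYPD (adjusted p = 0.0155, n = 2 pools in each strain). YB was also 1.45-fold higher than YD, by 0.53 ± 0.09 with a limma adjusted p of 0.0237. In the other strains the differences from NDL25 lay between -0.10 and -0.03, and the 95% interval for NYPD against NDL25 ran from -0.30 to 0.10. The rise over NDL25 was not called without either NDL25 pool (limma adjusted p = 0.146 and 0.154), without YB pool 2 (0.059), or without any 1 pool of YC, YD or YE (0.0563 to 0.0591). The difference from NYPD was 0.59 but not called without NYPD pool 2 (limma adjusted p = 0.0664). The difference from YD was 0.53 without either pool of NDL25 or YE, 0.48 and 0.59 without YD pool 1 or 2, and 0.41 without YB pool 2, and none of these was called, with limma adjusted p-values from 0.0503 to 0.164.

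The YB tumours also held salivary gland transcripts. The 8 salivary markers averaged 4.07 and 4.52 in the YB pools, with 8 of 8 above the reference, and between -0.01 and 0.16 in the other 10 pools, with 4 to 6 of 8 above. Spry1 was high in the same 2 pools, and the part of the salivary transcripts in its rise was not tested. The genes with ordinary symbols whose pattern over the 12 pools was most like that of Spry1 were Olfr183 (r = 0.985), Crybb3 (r = 0.984) and Plcd4 (r = 0.984), of 17567 ranked. Their strain means in YB were 0.68, 0.75 and 0.70, against 0.01 to 0.15 in the other strains. For Spry4 probe 1 the most similar were Rab26 (r = 0.937), Htr5b (r = 0.894) and Mtif3 (r = 0.891). Rab26, a small GTPase of secretory vesicles, had strain means of 1.98 in NDL25, 0.50 in NYPD and 0.67 in YB.

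**Figure D3:**
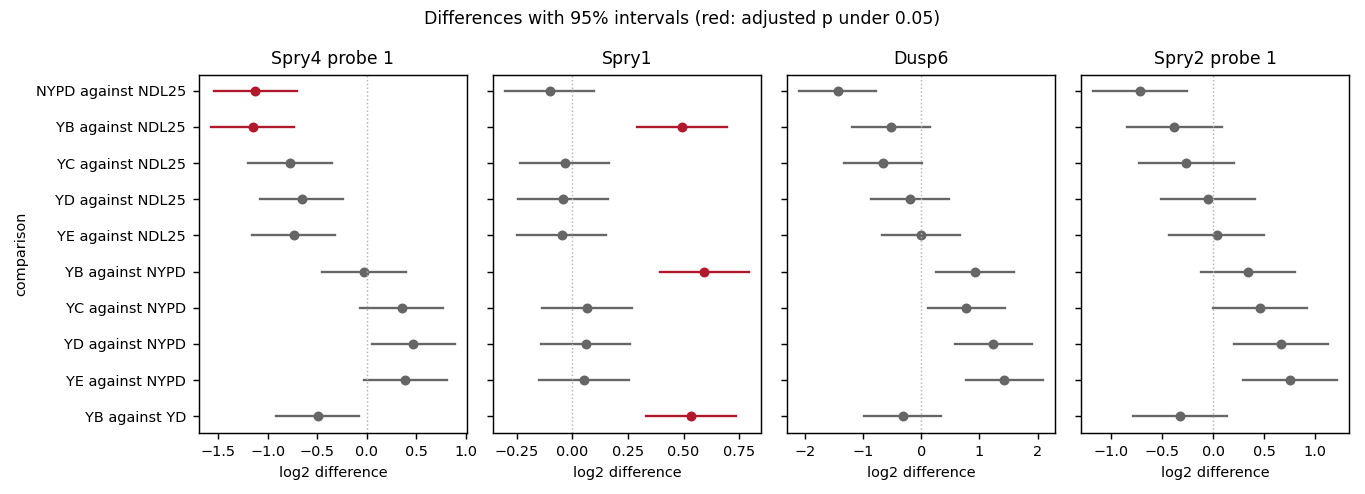
Log2 differences between strain means (horizontal axis) with 95% intervals for Spry4 probe 1, Spry1, Dusp6 and Spry2 probe 1 in the 10 contrasts (vertical axis), in red where the adjusted p was under 0.05. Spry4 probe 1 lies below 0 in all 5 contrasts with NDL25, and Dusp6 lies below 0 in NYPD against NDL25 by 1.44 and above 0 in all 4 contrasts with NYPD.

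Dusp6 is the phosphatase most selective for ERK, and its transcript is a standard ERK readout. It read 2.35 and 2.44 in NDL25, 2.11 and 2.68 in YE, and 2.03 and 2.37 in YD. It read 1.81 and 1.95 in YB, 1.48 and 1.999 in YC, and 1.32 and 0.60 in NYPD. Both NYPD pools lay below all 10 other pools, while neighbours in the order overlapped except YD above YB and YC above NYPD.

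The NYPD difference in Dusp6 was the largest strain difference among the members in log2 terms but did not pass the test. Dusp6 differed by -1.44 ± 0.29 in NYPD against NDL25 (limma adjusted p = 0.0713). YE against NYPD differed by 1.43 ± 0.29, with a limma adjusted p of 0.0563. The differences of YD, YB and YC from NYPD were 1.24, 0.92 and 0.78, with limma adjusted p-values of 0.18, 0.131 and 0.421. The leading differences were thus those of NYPD against NDL25 and of YE against NYPD. These 2 leading differences rested on the NYPD pool kept. Without NYPD pool 1 they were -1.79 and 1.79, and both were called, in a fit that left 1 pool in NYPD. Without NYPD pool 2 they were -1.08 and 1.08, and neither was called. NYPD against NDL25 stayed uncalled in 23 of 25 alternative settings, and YE against NYPD in 21 of 25. YE against NYPD was also called in limma with median centring (1.38, adjusted p = 0.0416), with Cy3 alone (1.41, 0.0493) and with the session as a random block (1.46, 0.0281). The random block also called NYPD against NDL25 (-1.41, limma adjusted p = 0.0373). NYPD alone made up its session, so this block cannot separate strain from session in either contrast. Its estimated correlation was -0.114. Under it, calls over all probes rose from 353 to 1239 in NYPD against NDL25 and from 741 to 1759 in YE against NYPD. Between YE and NDL25 the difference was -0.01 with a 95% interval from -0.67 to 0.66.

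Dusp4, a nuclear phosphatase of ERK and JNK, was lowest in YC. Its probe 1 read 0.97 and 0.47 in YC and 1.33 and 1.40 in NDL25, and the other 8 pools lay between 0.89 and 1.33. The YC pools thus overlapped those of NYPD but not those of NDL25, from which they differed by -0.65 ± 0.19 (limma adjusted p = 0.266). Probe 2 was dimmer, and also lowest in YC, at -0.31 and -0.39. There the difference from NDL25 was -0.41 ± 0.17 (limma adjusted p = 0.415), and YC pools lay below both YD pools, which read -0.30. The probes correlated at r = 0.67 across the 12 pools.

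Spry2 restrains receptor signalling in branching epithelia and was lowest in NYPD on both of its probes. Probe 1 read 0.85 and 0.82 in NDL25, 1.002 and 0.73 in YE, and 0.82 and 0.74 in YD. It read 0.77 and 0.37 in YC, 0.60 and 0.30 in YB, and 0.37 and -0.14 in NYPD. Levels were high in NDL25, YE and YD, and NYPD overlapped the strain next above it.

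Spry2 probe 1 differed by -0.72 ± 0.20 in NYPD against NDL25 (limma adjusted p = 0.141) and by 0.75 ± 0.20 in YE against NYPD (adjusted p = 0.105). Spry2 probe 2 was close to the reference, with strain means from -0.24 in NYPD to 0.07 in YE. Its differences in the same contrasts were -0.23 ± 0.07 and 0.31 ± 0.07, with limma adjusted p-values of 0.166 and 0.0736. The order of the 6 strain means was the same on both probes: YE, NDL25, YD, YC, YB and NYPD. None of these differences passed the threshold.

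Spred1 and Spred2 are Sprouty-related inhibitors of Raf activation. Spred1 probe 1 ran from 0.49 to 1.42 over the 12 pools, and both extremes were NYPD pools. Spred1 probe 2 stayed between 0.11 and 0.55, the extremes being the YB pools, and Spred1 probe 3 ran from -0.27 to 0.79. Spred2 probe 1 was below the reference in 12 of 12 pools, from -0.37 to -0.03, with NDL25 highest. Their smallest contrast adjusted p in limma was 0.269, for Spred2 probe 1 in NYPD against NDL25 (-0.24 ± 0.09). The 3 Spred1 probes correlated at between r = 0.03 and r = 0.63 across pools, and the 2 Spred2 probes at r = -0.06.

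The PEA3 factors differed more between pools than between strains. Etv4 read -0.79 and -0.45 in YB and -0.12 and -0.15 in NDL25. It read 0.41 and 0.07 in YE, 0.43 and -0.27 in YD, 0.25 and -0.23 in YC, and -0.52 and 0.01 in NYPD. YB was lowest by its mean, its pools overlapped those of NYPD, and its difference from YD was -0.70 ± 0.29 (limma adjusted p = 0.274).

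Etv5 probe 1 read 0.14 and 1.38 in pools 1 and 2 of NDL25, and -0.44 and 1.78 in those of YB. It read 1.99 and 2.13 in NYPD, 1.61 and 2.44 in YC, 1.58 and 2.07 in YD, and 0.97 and 1.52 in YE. The 2 lowest values were thus pool 1 of NDL25 and pool 1 of YB, and pool 2 was higher than pool 1 in 6 of 6 strains. The gaps of 1.24 in NDL25 and 2.23 in YB were larger than those of 99.4% and 99.9% of all probes in these strains. The largest contrast of this probe, YB against NYPD, was -1.39 ± 0.71 (limma adjusted p = 0.34). Etv5 probe 2 carried the same transcript accession but ran only from 0.20 to 0.62, and its pools of NDL25 differed by 0.11.

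**Figure D4:**
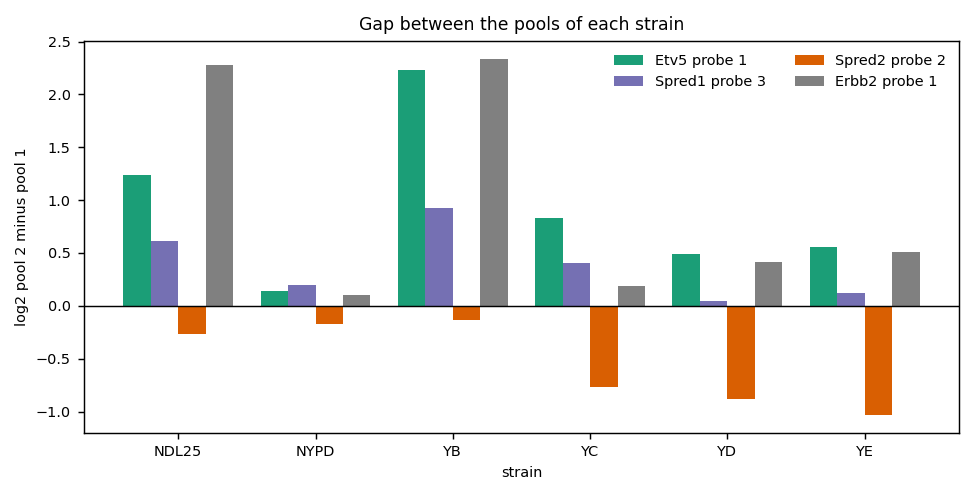
Log2 ratio of pool 2 minus pool 1 (vertical axis) within each strain (horizontal axis) for Etv5 probe 1, Spred1 probe 3, Spred2 probe 2 and, in grey, the brightest Erbb2 probe. The bars of Etv5 probe 1, Spred1 probe 3 and Erbb2 are highest in NDL25 and YB, and those of Spred2 probe 2 are lowest in YC, YD and YE.

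The same 2 pools were low on another member probe and on the brightest Erbb2 probe. Whether that Erbb2 probe reads the neu transgene was not tested. Spred1 probe 3 read -0.23 and 0.39 in the pools of NDL25 and -0.27 and 0.66 in those of YB, and all other pools lay between 0.11 and 0.79. The brightest Erbb2 probe read 1.64 in pool 1 and 3.92 in pool 2 of NDL25, and 1.85 and 4.19 in those of YB, with the other 8 pools between 3.42 and 4.05. The other 2 Erbb2 probes did not show this gap, reading 0.97 and 0.55 in NDL25 on probe 2 and -0.01 and 0.24 on probe 3. Without these 2 pools, left out together after the values were seen, Spry4 probe 1 differed from NDL25 by -1.01 in YB (limma adjusted p = 0.236) and by -1.06 in NYPD (0.19).

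Spred2 probe 2 was split in another way. Pool 1 was above pool 2 in 6 of 6 strains, and the gap was widest in YE (0.43 and -0.60), YD (0.33 and -0.55) and YC (0.36 and -0.41). These gaps were larger than those of 98.9%, 98.6% and 97.5% of all probes in these strains. Both YB pools were low, at -0.25 and -0.38. This probe and its pattern were picked out after the values were seen.

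Counted by direction alone, the members were more often lower than higher against the parental strain. Of the 16 probes, 11 were lower in NYPD, 13 in YB, 12 in YC, 13 in YD and 9 in YE, where 50.7%, 52.8%, 51%, 49.3% and 49.8% of all probes were lower. All 5 counts share the NDL25 pools, and probes of a gene are not independent. The median log2 difference of the members was -0.09, -0.19, -0.13, -0.05 and -0.02 in the same order, while the median over all probes was between -0.01 and 0.00. The pools did not overlap between NDL25 and NYPD, YB, YC, YD or YE for 10, 10, 9, 5 and 6 member probes, where 47.2%, 45.8%, 47.2%, 45.5% and 39.8% of all probes did not overlap. Between NYPD and YB, YC, YD or YE they did not overlap for 4, 6, 6 and 10 member probes, against 45.5%, 40.5%, 41.6% and 49.9% of all probes, and between YB and YD for 6, against 47% of all.

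Levels of different members were compared across the 12 pools with the brightest probe of each gene. Of 36 pairs of the 9 genes measured, 0 passed a two-sided permutation test after Benjamini-Hochberg adjustment, by Pearson or by Spearman correlation. The highest was Spry2 with Dusp6, at r = 0.744 (permutation p = 0.00787, adjusted p = 0.283) and rho = 0.587 (permutation p = 0.0479, adjusted p = 0.326). Without NYPD pool 2 and YB pool 2, the pools farthest from the median of Spry2, r was 0.484, so this relation rested on those pools. Within the sessions it was 0.123 over 5 pools and 0.305 over 5 pools, and NYPD was the session of 2 pools. Spry2 with Spry4 had r = 0.623 and rho = 0.72 (permutation p = 0.0287 and 0.0104, adjusted p = 0.438 and 0.326), and r = 0.656 without the same pools. Pools of a strain share a receptor, so the 12 points are not fully independent.

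Of the 21 genes of the cascade itself, from Ras and its exchange factors to Erk and its Rsk targets, 20 were tested and 1 was called by the F test, against 2.39% of all probes, and 7 had an unadjusted p under 0.05, against 20.2%. This was Sos2, a Ras exchange factor, with strain means of 0.68 in NDL25, 0.56 in NYPD, 0.46 in YE, 0.40 in YB, 0.20 in YD and 0.15 in YC (limma adjusted p = 0.0315). No gene of the cascade was called in any of the 10 contrasts, with 3 to 6 genes in each at an unadjusted p under 0.05 in limma, where the contrasts had between 7.1% and 19.4% of all probes. Rasgrp1 and Sos1, further Ras exchange factors, had F test adjusted p-values of 0.0665 and 0.146 in limma. On its brightest probe Rasgrp1 was lowest in NDL25, at -1.97, and highest in YE, at -0.65. A dimmer Rasgrp1 probe differed by only 0.015 in YE against NDL25 (limma F test unadjusted p = 0.696). Sos1 ran from -1.53 in YD to -0.69 in NYPD on its brightest probe. On a dimmer Sos1 probe NYPD was instead the lowest strain, differing from NDL25 by -0.21.

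Of 24 other ERK outputs and feedback genes, 22 were tested, 0 were called by the limma F test, against 2.39% of all probes, and 9 had an unadjusted p under 0.05, against 20.2%. In the contrasts, 1 call was made: Myc, a transcription factor of cell growth, fell by 1.06 ± 0.19 in YE against NYPD (limma adjusted p = 0.042), a contrast in which 1.81% of all probes were called. Dimmer Myc probes differed by -0.94 and -0.12 in the same contrast, in which NYPD and its session cannot be told apart. On its brightest probe Myc had strain means of -0.58 in NYPD, -0.98 in YC and between -1.63 and -1.37 in the other strains. Epha2, an ephrin receptor induced by ERK, had means of 1.90 in YD, 1.73 in YC and 1.59 in NDL25, and of 0.51 in YB, 0.40 in YE and 0.29 in NYPD (F test adjusted p = 0.0681). Fos was highest in NYPD at -1.65 and lowest in YE at -3.13 (0.11), and Fosl1 ran from -3.43 in YB to -2.97 in NYPD (0.169). Against NDL25 in NYPD, the median of the 22 genes was 0.26 on the brightest probe of each. That of the 16 member probes was -0.09, but these include dimmer probes of the same genes, so the 2 medians are not like for like.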

How the data were processed

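The members and gene lists were chosen with earlier results of these data known. Per the file headers, the deposited scanner files hold spot and local background intensity in each channel from Agilent Feature Extraction. The authors also deposited 1 ratio per dye-swap pair and probe, read here as log2, a base the files do not state. These ratios correlated with the scanner ratios at r = 0.983 to 0.988, so their direction is tumour over reference, and their medians ran from -0.00222 to 0.0147. RMA, limma and R 2.3.0 are named in the submitters' processing notes. Because the labels name both dyes in each channel, the tumour dye was read from 22 probes of luminal and milk genes, which gave 24 of 24 arrays a direction and every pool 1 array of each dye.

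Intensities were corrected by normexp (offset 50) and normalised by loess in limma 3.58.1 under R 4.3.3. Spots marked non-uniform or outlying were left out, the exchanged array was turned and the pair averaged, giving each pool 1 log2 ratio. From the 41174 probes, 2 without unmarked values and 325 with tumour signal well above background on fewer than 4 arrays were removed. Current symbols came by accession for 20716 probes, by symbol for 5039 and by synonym for 5279, and 10140 kept the name in the file. The model had 6 residual and 1.72 prior degrees of freedom, and the median SE of a contrast was 0.112. SE is limma's moderated standard error. The F test, 5 contrasts with NDL25, 4 with NYPD and YB against YD were run. Tested on simulated data laid out as YB against NDL25 with all 40847 probes, the model made 3 false calls, and it found 28 of 100 probes shifted by 0.5 on the log2 scale and 55 of 100 shifted by 1. The simulated noise was drawn independently for each probe and pool, whereas pool differences in the real data were correlated between some strains. Rates of false and found calls in the real data may therefore differ. Correlations used 100000 permutations. Named genes were every member probe, up to 4 genes of each pathway list by F test p, and the 3 genes most like each of the 2 members with the smallest F test p. Pathway lists used the brightest probe of each gene. One gene that this rule names is not reported here. Alternatives covered background correction, normalization, filters, marked spots, probe choice, single dyes, deposited ratios, blocks, 2-strain fits and left-out pools.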

Additional observations from a re-analysis of the deposited data

How the results depend on the processing

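The 755 values under alternative settings cover pairs of member probe and contrast with an unadjusted limma p under 0.05 in the main fit. Most of these pairs were not called there. Direction and side of the threshold were kept by 699, 43 lost the call, 11 gained it and 2 turned. The turned ones were Spry4 probe 1 with the session as a fixed block in YD (0.52) and YE (0.44) against NDL25. All 43 losses fell on the called pairs. Spry4 probe 1 lost the call in 13 of 26 settings for NYPD against NDL25 and in 5 of 27 for YB against NDL25. The Spry1 calls in YB were lost in 14 of 27 settings against NDL25, 2 of 26 against NYPD and 9 of 27 against YD. Calls per contrast are small counts that moved by 1 or 2. In NYPD against NDL25, the 1 call became 0 with the scanner software's processed signals, with median centring, with the authors' deposited ratios, in a fit of the 2 strains alone, and without pool 1 of NDL25 and YB together (chosen after seeing the data), and became 2 with the session as a random block (estimated correlation -0.114). In YB against NDL25, the 2 calls became 1 with median centring, scale normalization, Cy3 alone, the fixed session block or both pools numbered 1 left out, and 0 in the fit of the 2 strains alone. In YB against NYPD the 1 call became 0 in the fit of the 2 strains alone. In YB against YD the 1 call became 2 with scale normalization or the deposited ratios, and 0 with the fixed session block or the 2 strains alone. In YE against NYPD, 0 calls became 1 with median centring or Cy3 alone and 2 with the random session block. The F test took 1 member probe with scale normalization, with the brightest probe of each gene or with the deposited ratios, and 2 with the random session block. Median centring moved the cascade to 0 F test and 1 contrast call and the other outputs to 2 contrast calls. Without the 2 farthest pools, 1 correlation was called in place of 0. The pair was Spred1 with Dusp6, at r = 0.926 without NYPD pool 2 and YE pool 2, compared with r = -0.088 over the 12 pools. Leaving out 1 pool at a time, the F test took 0 to 1 member probes, NYPD against NDL25 0 to 1, YB against NDL25 0 to 2, YB against NYPD 0 to 1, YE against NYPD 0 to 1 and YB against YD 0 to 1. The same gave the cascade 0 to 2 F test calls and 0 to 3 contrast calls, and the other outputs 0 to 2 contrast calls. Where that left 1 pool in a strain, it was assumed to vary like the others. The cause of these changes was not tested, beyond the smaller number of pools in fits that leave some out. Dusp6, Etv4 and Etv5 probe 1 lacked deposited values in some pools and were not tested in that fit.

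The pool numbers were not taken to pair the samples, since only 7 of 15 strain pairs had pool differences correlated above 0.1. The correlations ran from -0.163 (NYPD with YD) to 0.736 (YC with YD), and were also high for YD with YE (0.665), YC with YE (0.507) and NDL25 with YB (0.48). With the pool number as a replicate block, NYPD against NDL25 had 2 calls and YE against NYPD 1, the added one in each being Spry2 probe 1 (limma adjusted p = 0.0456 and 0.0324), and the other outputs had 3 contrast calls. Precision is limited by 2 pools in each strain, and Spry4 probe 2 had a median tumour signal of only 122 over local backgrounds of 39 to 64.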
